A study of Mus musculus with 6 samples.

Results

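The 7 genes described here, Ms4a4b, Ms4a4c, Ms4a4d, Ms4a6b, Ms4a6c, Ms4a6d and Ms4a7, belong to the membrane-spanning 4A family and were followed in heart ventricle of mice with and without Trex1. They were taken by gene symbol, 7 of 18193 genes with a probe set of a single symbol, and are read by 14 of the 45037 probe sets that are not array controls. They were picked with results of this comparison already known, so their differences are given as a description, with no p-value, and support nothing beyond themselves. The data are 6 arrays, 1 per mouse. There were 3 mice with wild-type Trex1 (Trex1 WT) and 3 Trex1 knockouts (Trex1 KO), and both groups carried a Rag2 knockout (RAG2KO). The mice formed 3 littermate pairs, A, B and C, each of 1 Trex1 WT and 1 Trex1 KO animal. The labels name no agent, and the sources used here do not give strain, age or the nature of the Trex1 allele. The groups are called WT and KO from here on.

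Ms4a genes encode small proteins that cross the cell membrane several times and sit together in a single run of genes. Different members are known from different blood cells. Ms4a1 is the B cell antigen CD20, Ms4a2 is the beta chain of the IgE receptor of mast cells, Ms4a4b is known from T cells, and Ms4a7 and the Ms4a6 genes are expressed in macrophages. In the heart, macrophages are the most common resident leukocyte. Trex1 degrades DNA in the cytosol, and its loss is known to set off interferon production through the cGAS and STING pathway. Rag2 is needed for T and B cell receptors, so Rag2 knockout mice are known to lack mature T and B cells.

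Levels are signals, the summarised brightness of a probe set on a linear scale, and signals of different probe sets are not compared with each other. Differences are KO minus WT on the scale log2(signal + 16), which understates the change of dim probe sets. The mark of background is 69.8, the highest signal of the 27 control probe sets for Bacillus transcripts, whose median was 8.98. Hybridisation controls, which are added to each array, were not used for it. The Trex1 probe set, which is annotated to Atrip as well, gave 340 to 887 in WT and 9.45 to 34.2 in KO, below that mark. RNA quality moved with the groups. The Actb 3' to 5' signal ratio was 1.80 to 2.29 in WT and 1.60 to 1.68 in KO, without overlap. A fit with this ratio as a covariate is given where it moves a value. Because the ratio moves with the groups, that fit cannot fully separate it from genotype. Nothing about RNA quality is read from a call that ends in it. WT A and WT B stood apart from the other arrays in the signal of the 18S ribosomal RNA control, at 6815 and 6226, against 503 in WT C and 588 to 1284 in KO. The part of ribosomal RNA in the differences was not tested, and the median of the 7 Ms4a genes given below was 0.91 without WT A and 1.07 without WT B. Nothing says that the animals of a group were raised separately, so SDs measure the spread between these mice only. SEs are those of limma, moderated towards a trend over all tested probe sets. They are therefore not the spread of a probe set alone and can be smaller than it.

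All 7 Ms4a genes had higher mean signals in KO hearts on their brightest probe set, and each was higher in the KO animal of all 3 littermate pairs. The differences ran from 0.45 for Ms4a6d to 1.63 for Ms4a4c, with a median of 1.02, where the median of all 12811 tested genes was -0.02. In each gene with several probe sets the brightest gave the largest difference. Over the 11 tested Ms4a probe sets the median was 0.72, where that of all tested probe sets was -0.006. In whole ventricle, more or fewer cells of a type cannot be told apart from more or less RNA per cell. The pair medians of the 7 genes were 0.68 in pair A, 0.76 in pair B and 1.17 in pair C. Of the 14 probe sets, 11 were bright enough to be tested and 3 were not. All 11 lay above 0, and the 3 not tested, under the background mark, lay below 0 (-0.50, -0.067 and -0.11). Brightness was judged on the mean of all 6 arrays, so KO signals count in it. The dimmer Ms4a6c probe set passed only through them, with mean log2 values of 6.01 in WT and 6.29 in KO around the limit of 6.13. In a limma fit across 27022 probe sets, 0 of the 11 reached a Benjamini-Hochberg adjusted p below 0.05, where 0.218% of all tested probe sets were called higher and 0.0259% lower. Over genes by their brightest probe set these shares were 0.312% and 0.039%. At an unadjusted p below 0.05, 7 of the 11 were higher and 0 lower, where 3.47% and 1.97% of all tested probe sets were. With littermate pair as a block, 3 of the 11 were called higher, the brightest probe sets of Ms4a4c, Ms4a6b and Ms4a7, and 0 lower, where 0.389% and 0.0592% of all probe sets were. Without WT B, Ms4a4c and Ms4a6b passed, among 85 probe sets called higher in all. Without pair B, Ms4a6b passed, among 54, and with a pseudocount of 64 Ms4a4c did, among 68. The 3 KO signals lay above all 3 WT signals for 6 of the 11 and below them for 0, against 5.57% and 4.99% of all tested probe sets. By gene, 5 of 7 lay above, against 5.03% of all tested genes. Of the 11, 10 were higher in all 3 pairs, against 14.2%. These shares come from the comparison the genes were picked on, and nothing is read from them.

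**Figure D1:**
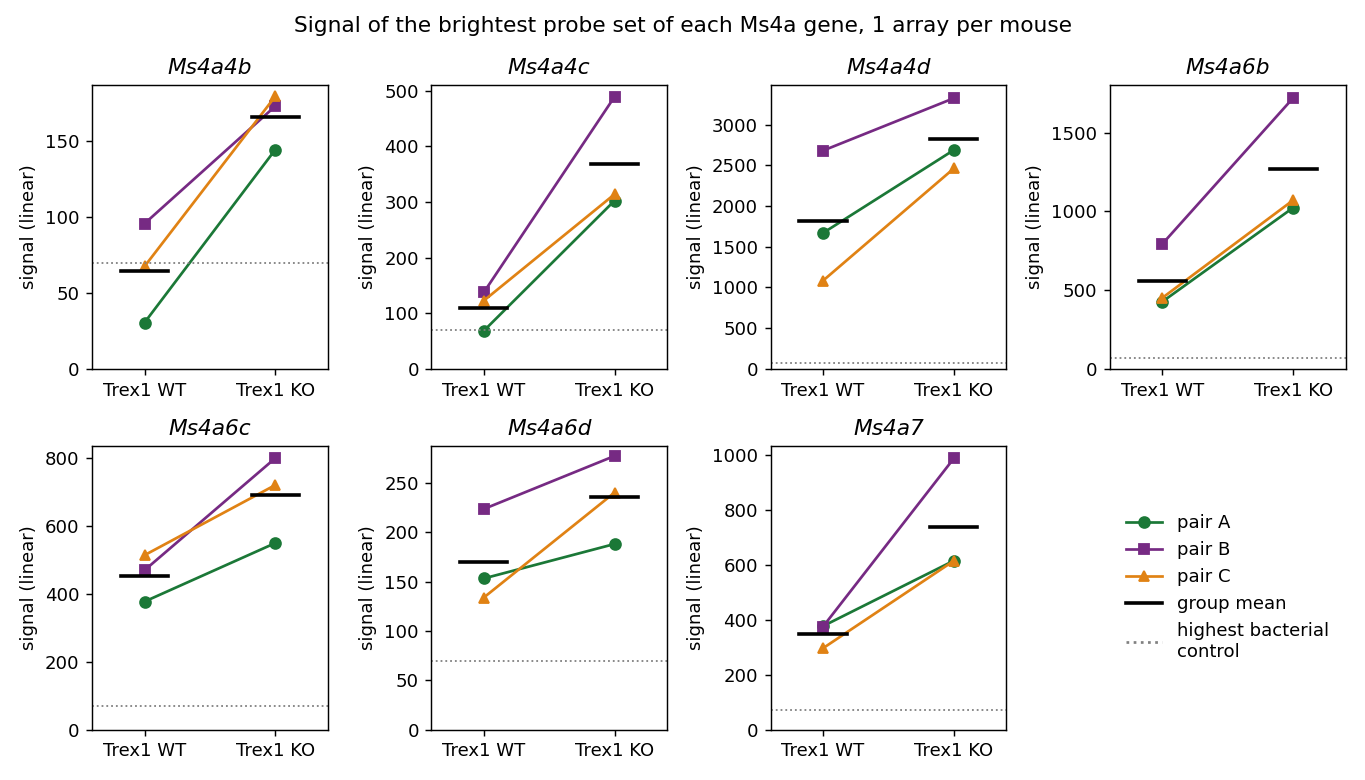
Signal of the brightest probe set of each of the 7 Ms4a genes (vertical axis, linear scale from 0) in WT and KO hearts. Points are arrays, lines join littermates, black bars are group means and the dotted line is the highest Bacillus control at 69.8. Every line goes up, and the groups overlap for Ms4a4d and Ms4a6d.

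Ms4a4c and Ms4a4b held the largest differences of the 7. Ms4a4c, a close relative of Ms4a4b, had signals of 68.4, 137 and 123 in the WT hearts (A, B, C) against 303, 489 and 314 in the KO hearts. The groups did not overlap, and the lowest KO heart lay well above the highest WT heart. The means were 110 ± 36.3 and 369 ± 105 (SD, n = 3 each), a log2 difference of 1.63 (SE 0.28), or 3.09-fold. In pairs A, B and C the difference was 1.92, 1.72 and 1.25. The dimmer Ms4a4c probe set gave 38.9, 89.0 and 112 in WT and 146, 354 and 221 in KO, also without overlap (log2 difference 1.42, SE 0.38). WT A was the lowest of the 6 arrays on both probe sets and lay below the background mark. The names of both probe sets end in a suffix that Affymetrix uses for probes shared with related transcripts, so their split between Ms4a4c and its relatives is uncertain.

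Ms4a4b encodes a membrane adapter that associates with the costimulatory receptor GITR on T cells. Its signals were 30.5, 95.7 and 67.5 in the WT hearts (A, B, C) against 144, 173 and 180 in KO. The KO hearts all lay above the background mark, whereas only WT B did so in the other group. The means were 64.5 ± 32.7 and 166 ± 18.7 (SD, n = 3 each), with a log2 difference of 1.26 (SE 0.34) that ranged from 0.76 in pair B to 1.79 in pair A. A second Ms4a4b probe set gave 3.01 to 27.2 on all 6 arrays, under the background mark, and was not tested. It was lower in KO in every pair, by -0.26, -1.18 and -0.05, so the Ms4a4b probe sets disagree in direction.

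T and natural killer cell markers give the setting for Ms4a4b. Of 11 T lymphocyte markers, 6 were at or below the background mark on every array, and only 3 were bright enough to test. Cd3e, a chain of the T cell receptor complex, had mean signals of 16.3 in both groups. Their median of -0.28 turned to 0.10 without KO A and to 0.02 without WT C, and was -0.16 without KO B. None of the 3 tested markers passed in limma in either direction (0 at an unadjusted p below 0.05, and 0 with the block); the smallest p was that of Cd28, a costimulatory receptor, at 311 ± 41.4 and 252 ± 33.4 (log2 difference -0.28, adjusted p = 0.955 in limma). Of 9 tested natural killer markers, 0 passed in limma (1 higher at an unadjusted p below 0.05, and 0 with the block), 8 lay above 0 and the median was 0.61, or 0.28 without KO B and 0.30 with the Actb covariate. Gzma, a granule protease of killer cells, had the smallest p of them, at 383 ± 135 and 871 ± 631 (log2 difference 0.96, limma adjusted p = 0.917). Klrk1, which is among the 9, was tested only through its KO signals. Its mean log2 values were 6.07 in WT and 6.75 in KO, around the filter of 6.13. The summed signal of the natural killer list, in which bright probe sets weigh most, was 843 to 1244 in WT and 1195 to 2903 in KO. KO B, where Gzma gave 1582, held the highest sum. The part of this sum in the Ms4a4b difference was not tested.

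Ms4a4d had signals of 1669, 2681 and 1084 in the WT hearts (A, B, C) against 2688, 3325 and 2462 in KO. The groups overlapped, because WT B lay between KO C and KO A. The means were 1811 ± 808 and 2825 ± 447 (SD, n = 3 each), a log2 difference of 0.72 (SE 0.27). Within pairs it was 0.68, 0.31 and 1.17 in A, B and C, and without WT C the log2 difference was 0.40. With the Actb covariate it was 1.74.

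Among the Ms4a6 genes, Ms4a6b differed most evenly between littermates. Its signals were 427, 793 and 451 in the WT hearts (A, B, C) against 1023, 1720 and 1071 in KO. Every KO heart exceeded every WT heart, and pair B was the highest pair in both groups. The means were 557 ± 205 and 1271 ± 389 (SD, n = 3 each), a log2 difference of 1.18 (SE 0.26), or 2.27-fold, with 1.23, 1.10 and 1.22 in the littermate pairs. A dimmer Ms4a6b probe set gave a smaller difference of 0.38 (SE 0.25), with 104 to 131 in WT and 124 to 197 in KO. The probe sets thus point the same way and differ in size.

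Ms4a6c had signals of 377, 470 and 514 in the WT hearts (A, B, C) against 550, 800 and 721 in KO. The groups did not overlap, although WT C and KO A lay close. The means were 453 ± 69.7 and 690 ± 128 (SD, n = 3 each), a log2 difference of 0.58 (SE 0.18) with 0.52, 0.75 and 0.48 in the pairs. A dimmer probe set exceeded the background mark on 1 array only and gave 0.29 (SE 0.34). With the Actb covariate the brighter probe set gave 0.37.

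Ms4a6d, a gene expressed in macrophages, had signals of 153, 224 and 134 in the WT hearts (A, B, C) against 188, 277 and 240 in KO. The groups overlapped, with WT B above KO A. The log2 difference was 0.45 (SE 0.24), with 0.27, 0.29 and 0.77 in the littermate pairs. Its middle probe set gave 0.24 (SE 0.28) and was lower in KO in pair A, by -0.50. The dimmest was under the background mark on every array and was not tested. The brightest carries the suffix for shared probes too. On brightest probe sets Ms4a6d had the smallest difference of the 7, which was 0.28 without pair C and 0.93 with the Actb covariate.

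Ms4a7, expressed mainly in macrophages, had signals of 377, 375 and 296 in the WT hearts (A, B, C) against 615, 987 and 614 in KO. The groups did not overlap. The WT hearts lay close together, and the spread in KO came from heart B. The means were 349 ± 45.9 and 738 ± 215 (SD, n = 3 each), a log2 difference of 1.02 (SE 0.20), or 2.03-fold, with 0.68, 1.36 and 1.01 in the pairs. Without KO B it was 0.80. A second Ms4a7 probe set stayed at 45.4 or less on all arrays and was not tested.

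**Figure D2:**
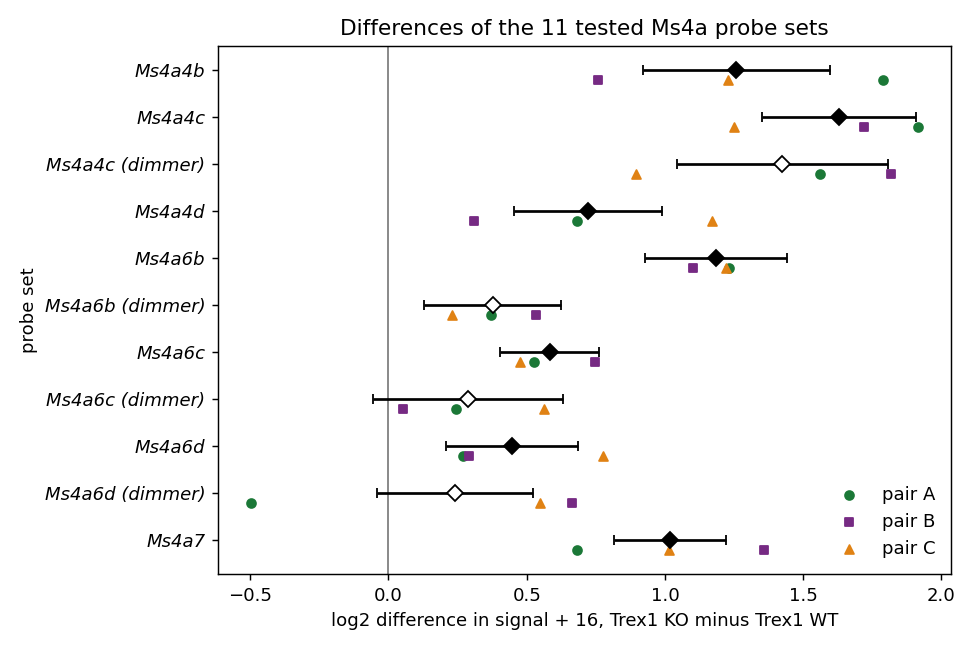
Log2 difference between KO and WT (horizontal axis) for the 11 tested Ms4a probe sets, 1 per line. Diamonds with bars are the difference and its moderated SE from limma, filled for the brightest probe set of a gene and open for dimmer ones. Coloured points are the differences within littermate pairs. All diamonds lie above 0, from 0.24 to 1.63, and the dimmer Ms4a6d probe set has a pair below 0.

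Because all members were higher in KO, the sequences before their RefSeq starts were compared. A promoter entry was found for 6 of the 7 genes, as 7 windows of 250 bases upstream of the start (GRCm38.p6), 1 for each gene except Ms4a7 with 2. Of the 21 pairs of windows, the closest by local alignment were Ms4a6b with Ms4a6c (151 identical of 181 aligned columns, 83.4%, with an unbroken shared run of 48 bases) and Ms4a4b with Ms4a4c (181 of 247, 73.3%, with a run of 20). No other pair shared a run of more than 9 bases. The 4 upstream windows are shown because they are the stretches that members share. Capitals mark the aligned stretch, in which single bases still differ. They lie on the + strand at chr19:11518309-11518558 (Ms4a6b), chr19:11469118-11469367 (Ms4a6c), chr19:11443308-11443557 (Ms4a4b) and chr19:11407411-11407660 (Ms4a4c).
Ms4a6b: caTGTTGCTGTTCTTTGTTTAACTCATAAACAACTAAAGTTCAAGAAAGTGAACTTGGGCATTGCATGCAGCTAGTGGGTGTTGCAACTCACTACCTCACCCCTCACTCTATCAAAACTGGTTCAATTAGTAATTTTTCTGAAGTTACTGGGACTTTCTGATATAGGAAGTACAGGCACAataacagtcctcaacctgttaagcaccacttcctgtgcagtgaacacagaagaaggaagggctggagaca
Ms4a6c: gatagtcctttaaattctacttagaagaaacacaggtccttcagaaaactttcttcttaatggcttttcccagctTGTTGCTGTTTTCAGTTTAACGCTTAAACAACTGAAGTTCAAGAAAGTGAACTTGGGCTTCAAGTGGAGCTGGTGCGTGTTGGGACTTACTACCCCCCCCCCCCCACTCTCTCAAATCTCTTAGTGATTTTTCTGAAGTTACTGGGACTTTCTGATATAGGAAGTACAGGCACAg
Ms4a4b: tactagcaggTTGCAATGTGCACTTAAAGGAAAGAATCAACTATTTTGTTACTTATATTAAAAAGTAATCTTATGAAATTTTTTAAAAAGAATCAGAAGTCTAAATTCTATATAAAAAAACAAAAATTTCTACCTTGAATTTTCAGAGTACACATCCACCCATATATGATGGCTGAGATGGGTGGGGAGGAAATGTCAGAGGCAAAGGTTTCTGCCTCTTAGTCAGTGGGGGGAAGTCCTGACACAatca
Ms4a4c: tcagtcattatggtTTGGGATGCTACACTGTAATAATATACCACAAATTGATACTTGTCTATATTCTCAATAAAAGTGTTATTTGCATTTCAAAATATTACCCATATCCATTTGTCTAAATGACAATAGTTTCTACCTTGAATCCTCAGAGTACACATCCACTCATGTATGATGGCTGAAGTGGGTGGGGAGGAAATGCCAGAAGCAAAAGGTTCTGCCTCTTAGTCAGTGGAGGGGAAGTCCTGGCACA

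The shared stretch lies 248 to 71 bases before the start of Ms4a6b and 175 to 2 bases before that of Ms4a6c, so the related stretch is placed differently. In Ms4a4b and Ms4a4c it runs almost up to the start. Within each related pair the differences in signal were unequal. Ms4a6b had a log2 difference of 1.18 and Ms4a6c of 0.58, and Ms4a4c had 1.63 and Ms4a4b 1.26.

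Letters of known immune motifs were searched on both strands of these windows. The core of the interferon-stimulated response element, 2 copies of GAAA with 2 bases between them, was found before 0 of the 6 genes and in 2.98% of 32851 promoter windows of the same length. The composite of an ETS and an interferon regulatory factor motif, GGAA and GAAA with 2 bases between them, whose last letters overlap those of the first motif, was found before 0 of 6, and in 2.3% of all. The PU.1 box GAGGAA was found before Ms4a4b and Ms4a4c, 64 and 61 bases before the start, and in 23.3% of all windows. A shorter string, GAAANNGAA, chosen after the sequences were seen, occurred before 3 of the 6 genes and in 7.13% of all windows. It lies inside the stretch that Ms4a6b and Ms4a6c share, as GAAAGTGAA, 206 and 133 bases before their starts, and at other letters before Ms4a7. A match is a description of the letters only, and sites outside 250 bases were not searched.

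The 7 genes lie close together on chromosome 19. In the gene table of GRCm38.p6 the Ms4a block holds 32 genes, 21 of them Ms4a genes, and the 7 fall within 13 neighbouring genes. The only other Ms4a gene in that stretch is Ms4a4a, which is not analysed here. Of the 10 genes on each side of the block, 15 of 20 had a probe set and 7 were bright enough to test. In limma 0 of these 7 passed (1 at an unadjusted p below 0.05, and 0 with the block), and their median difference was -0.03. The gene at an unadjusted p below 0.05, named after its value was seen, was Slc15a3, a peptide and histidine transporter of endolysosomes, at 157 ± 35.9 and 263 ± 37.4 (log2 difference 0.70, limma adjusted p = 0.668). Inside the block, the long noncoding RNA AW112010 had 3760 ± 895 and 4196 ± 947 (log2 difference 0.16, limma adjusted p = 0.966).

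**Figure D3:**
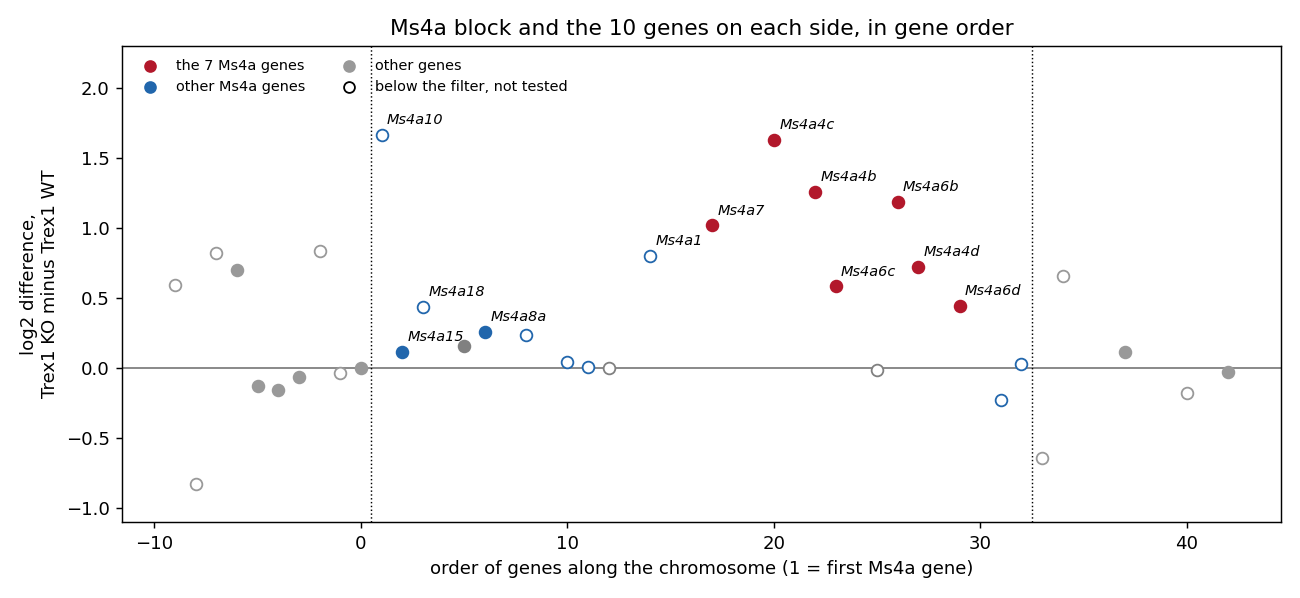
Log2 difference between KO and WT (vertical axis) against the order of genes along the chromosome (horizontal axis, counted from the first Ms4a gene), for genes with a probe set. Red points are the 7 Ms4a genes, blue points other Ms4a genes and grey points other genes, and open points were below the filter and not tested. The 7 lie close together between 0.45 and 1.63, and the tested genes flanking the block reach 0.70 at most. Open points of Ms4a10 and Ms4a1, with signals around or under the background mark, lie at 1.67 and 0.80.

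Most other Ms4a genes were dim in these hearts. Of the list of other Ms4a and related Tmem176 genes, 10 of 15 had a probe set with a single symbol, 4 were tested, and 0 passed in limma (0 at an unadjusted p below 0.05, and 0 with the block). The median of the 4 was 0.25, or 0.42 without WT B, 0.45 without pair B and 0.58 with the Actb covariate. Tmem176b, a related membrane protein of myeloid cells, had 1715 ± 295 in WT and 2298 ± 546 in KO (log2 difference 0.40, SE 0.19, limma adjusted p = 0.927), and its relative Tmem176a had 0.24. Ms4a15 and Ms4a8a had differences of 0.12 and 0.26.

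The remaining 6 members of that list were below the filter. The mast cell gene Ms4a2 had 30.4, 38.6 and 58.1 in WT and 54.1, 8.13 and 52.6 in KO, in no order by group. Ms4a3, a gene of myeloid progenitors, had 15.2 to 72.1 in WT and 11.7 to 87.7 in KO. The B cell gene Ms4a1 had 19.4 to 22.1 in WT and 22.9, 49.9 and 82.0 in KO, of which only KO A exceeded the background mark. Ms4a10 had 3.24 to 11.4 in WT and 38.4, 55.2 and 71.0 in KO. The log2 differences were 0.80 for Ms4a1 and 1.67 for Ms4a10. On these probe sets Ms4a1 and Ms4a10 did not overlap between groups, at signals around or under the background mark. A dimmer Ms4a1 probe set did overlap. It was higher in KO in 2 pairs and lower in pair B, by -1.04. Of all tested probe sets, 5.57% had every KO signal above every WT signal and 4.99% below. Ms4a1 and Ms4a10 were not tested, and nothing is read from their lack of overlap. Ms4a13 and Ms4a18 had differences of 0.01 and 0.43. Ms4a19 and Ms4a20, which were not in the list, stayed below the background mark on every array.

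B and mast cell markers were sparse too. Of 6 B lymphocyte markers 2 were tested and 0 passed in limma in either direction (0 at an unadjusted p below 0.05, and 0 with the block), with Ighm, the IgM heavy chain, at 535 ± 263 and 396 ± 85.0 (log2 difference -0.34, limma adjusted p = 0.956). Of 7 mast cell markers 4 were tested and 0 passed in limma (1 lower at an unadjusted p below 0.05, and 0 with the block), all with differences below 0 and a median of -0.49. Tpsb2, a mast cell tryptase, had 106 ± 22.5 and 26.0 ± 11.5, the latter below the background mark (log2 difference -1.56, limma adjusted p = 0.270). Its KO mean of 5.35 in log2 lay below the filter of 6.13, so it was tested only through its WT signals.

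General macrophage markers had a median difference of 0.26, beside 1.02 for the 7 Ms4a genes, and the gap itself was not tested. All 22 were tested and 0 passed in limma (2 higher and 0 lower at an unadjusted p below 0.05, and 0 with the block), with 20 of 22 above 0. The median was 0.47 without WT B, 0.13 without KO B and 0.14 without WT C. A covariate for the Actb ratio gave 0.70. Their pair medians were 0.15, 0.17 and 0.48 in A, B and C, beside 0.68, 0.76 and 1.17 for the 7 Ms4a genes. C1qa, a chain of complement C1q made by macrophages, had the smallest p of them, with 2987 ± 495 and 4264 ± 447 (log2 difference 0.52, SE 0.13, limma adjusted p = 0.416). Csf1r, the receptor for the macrophage growth factor, had a difference of -0.15, and Adgre1, which encodes F4/80, had 0.37. The summed signal of the 22, in which bright probe sets weigh most, ran from 25300 to 40988 in WT. In KO it ran from 30761 to 43533, and the groups overlapped. Its part in the Ms4a differences was not tested.

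The 14 markers of resident and alternatively activated macrophages had a median of -0.07, and 4 lay above 0. The median was 0.02 without WT B, -0.21 without WT C, -0.02 without KO A and 0.21 with the Actb covariate, so its direction is not settled. In limma 0 rose and 1 fell, Retnla, which alternatively activated macrophages secrete (log2 difference -1.76, limma adjusted p = 0.0459). Leaving out any single array other than KO C ended that call (limma adjusted p from 0.0788 to 0.200), as did the Actb covariate (limma adjusted p = 0.796). It also ended with a pseudocount of 1, no filter, quantile normalization, eBayes without trend, and without pair A or B. With the block 0 rose and 2 fell, Retnla and the haemoglobin scavenger receptor Cd163 (log2 difference -1.38, limma adjusted p = 0.0504, and 0.00855 with the block). Of 7 tested monocyte markers 1 rose and 0 fell in limma, and the median was 0.23, or 0.36 without WT B and 0.77 with the Actb covariate. The one that rose was Plac8, a gene expressed in monocytes and also inducible by interferon. Its signal went from 206 ± 48.0 to 1567 ± 460, or 2.81 in log2 (limma adjusted p = 0.000679). With the Actb covariate the difference was 3.04 and the call ended (limma adjusted p = 0.0720). Of the 7 monocyte markers, 6 lay above 0. The monocyte chemokine receptor Ccr2 had a difference of -0.09 (SE 0.39), with -1.24, 0.38 and 0.58 in the pairs, so its direction is not settled. Of 4 tested neutrophil markers 0 passed in limma (1 higher at an unadjusted p below 0.05, and 0 with the block) and the median was 0.80, or 0.45 without KO B. Within pairs that median was -0.47, 1.31 and 1.16. Csf3r, the receptor for the granulocyte growth factor, had the smallest p, at 40.9 ± 20.1 and 80.6 ± 6.43 (log2 difference 0.82, limma adjusted p = 0.901). Its WT mean of 5.78 in log2 lay below the filter of 6.13, so it was tested only through its KO signals. Its place among the 4 is thus not independent of the difference.

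Interferon-induced genes had the highest median of the lists. All 8 that were tested of a list of 10 rose in limma, with a median of 2.58, and the other 2 are not analysed here. With the Actb covariate the median was 2.55 and 4 of the 8 passed, and without pair A 5 did. Oas3 did not pass with the covariate, at a difference of 2.81 (limma adjusted p = 0.164). The list was chosen with results of these data known. Usp18, which restrains interferon signalling, rose by 3.34 (limma adjusted p = 6.54e-06), the RNA sensor Oas3 by 2.78 (limma adjusted p = 0.00109) and the RNA-binding Ifit1 by 2.67 (limma adjusted p = 0.000354). The WT signals of Oas3, 24.4 to 29.6, and of Mx2, 19.6 to 41.0, lay under the background mark, so the sizes of their differences are uncertain. Their WT means of 5.43 and 5.39 in log2 lay below the filter of 6.13, so both were tested only through their KO signals. Their place among the 8 is thus not independent of the difference. In the main fit the largest Ms4a difference, 1.63 for Ms4a4c (SE 0.28), lay below each of the 8. Rsad2 had the smallest of these at 1.67 (SE 0.18). Over the alternative fits Ms4a4c ran from 1.31 to 1.82, so the order of Ms4a4c and Rsad2 is not settled. Of cardiomyocyte markers, 0 of 6 were past the threshold in limma (0 at an unadjusted p below 0.05, and 0 with the block), and the median was -0.01, or -0.11 to 0.06 without single arrays. Of them Ryr2, the calcium release channel, had the smallest p (log2 difference -0.10, limma adjusted p = 0.968). The ventricular marker Myl2 had means of 45871 and 45587, and the atrial marker Sln had 21.0 and 14.7. The atrial marker Myl7 had 77.1, 297 and 13.6 in WT, with a mean of 109 ± 41.3 in KO, and was highest in WT B and lowest in WT C. Of 3 tested atrial markers 0 passed in limma (1 higher at an unadjusted p below 0.05). With the block 1 passed, Nppa, a natriuretic peptide that a stressed ventricle also makes, at 16165 ± 4540 and 31458 ± 3918 (limma adjusted p = 0.126 without the block and 0.00886 with it).

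**Figure D4:**
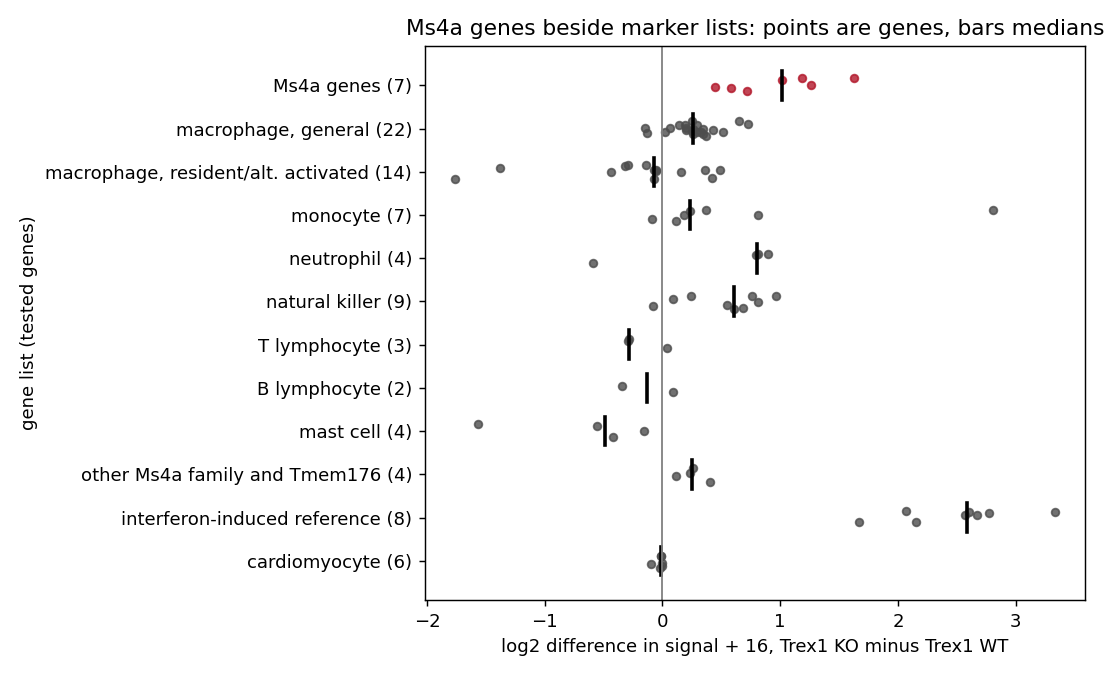
Log2 difference between KO and WT (horizontal axis) for the 7 Ms4a genes and the tested genes of 11 lists. Points are genes by their brightest probe set, black bars are medians and numbers in brackets are genes. The Ms4a median of 1.02 lies between the general macrophage median of 0.26 and the interferon-induced median of 2.58.

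Among animals of the same genotype, the hearts of pair B tended to hold the highest Ms4a signals. WT B was the highest WT heart for 5 of the 7 genes and KO B the highest KO heart for 6 of 7. Over all tested genes these shares were 37.7% and 31%. The median deviation of the 7 genes from their group mean was 0.39 in WT B and 0.25 in KO B, and -0.24 to -0.19 in the other 4 hearts. The 22 general macrophage markers deviated in the same way, by 0.38 in WT B and 0.31 in KO B, and heart B was the highest of its group for 20 of 22 in each genotype. So did some other lists. Interferon-induced genes deviated by 0.22 and 0.29 (WT B highest for 5 of 8 and KO B for 8 of 8) and monocyte markers by 0.33 and 0.28. Mast cell markers deviated by 0.26 and 0.17 and natural killer markers by 0.15 and 0.66. Resident macrophage markers deviated by 0.25 in WT B but by -0.03 in KO B, and the other Ms4a and Tmem176 genes by 0.27 and -0.03. Neutrophil markers deviated by -0.16 and 0.52, and T lymphocyte markers by 0.18 and -0.07. B lymphocyte markers deviated by -0.02 and 0.0009, and atrial markers by 0.24 and -0.04. Cardiomyocyte markers deviated by 0.06 and -0.06.

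**Figure D5:**
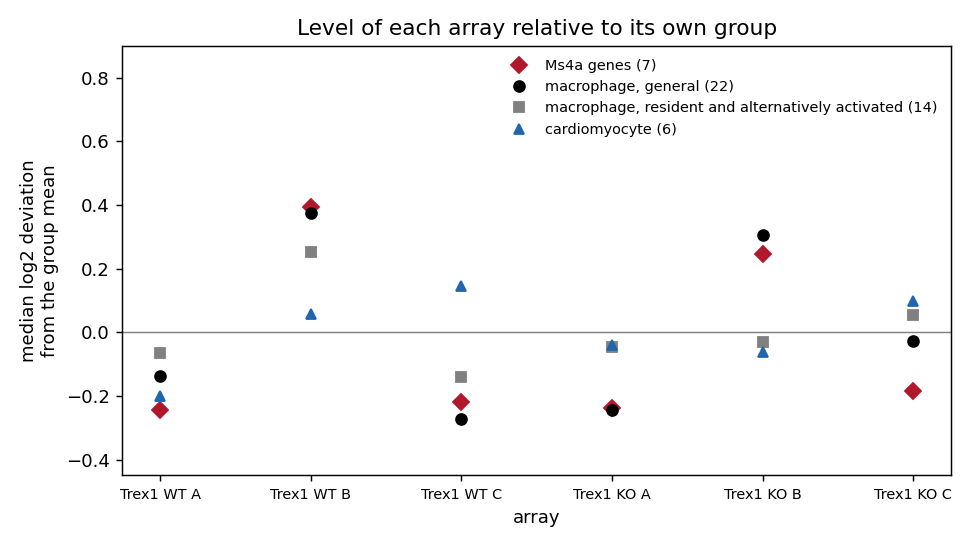
Median deviation in log2(signal + 16) of each array from the mean of its own group (vertical axis), for the 7 Ms4a genes and 3 marker lists, with the number of genes in brackets. Ms4a genes and general macrophage markers are highest in heart B of both groups, at 0.25 to 0.39, and resident markers are highest in WT B at 0.25.

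The genes most like each member were those with the highest Pearson correlation of log2 signal over the 6 arrays among 12811 tested genes. With so many genes and 6 arrays that share a group difference, high values are common, and they are given as a description. For Ms4a4c they were Rnf213 (r = 0.989), the interferon-inducible Rtp4 (0.987) and Lacc1 (0.987). For Ms4a6b they were Mndal, a member of the interferon-inducible PYHIN family (0.997), the chemokine receptor Ccr1 (0.994) and Atp8b4 (0.993). For Ms4a7 they were Scn3b (0.995), Slfn1 of the Schlafen family (0.991) and Ncoa7 (0.988). For Ms4a4b they were Zbtb32 (0.988), the mitochondrial folate enzyme Mthfd2 (0.987) and the antiviral membrane protein Ifitm3 (0.986). For Ms4a6d they were the adhesion molecule Vcam1 (0.996), Arhgdib (0.993) and C1s1, a protease of complement (0.990). Those of Ms4a6c included Cfp, the complement protein properdin (0.992), and those of Ms4a4d were Haus1 (0.991), Litaf (0.990) and Gimap1 (0.987). The other 2 for Ms4a6c were Phykpl (0.990) and Pth2 (0.988). After the group means were removed, the nearest gene was the Fc receptor chain Fcer1g for Ms4a6d (0.9996) and the macrophage scavenger receptor Msr1 for Ms4a4b (0.998). For the others it was Atp6v0d1 for Ms4a4c (0.997), Slc43a3 for Ms4a4d (0.999), Pet100 for Ms4a6b (0.998), Lgals12 for Ms4a6c (0.999) and Bbs4 for Ms4a7 (0.995). Removing the group means leaves fewer independent values, so high correlations are common here too. No cell type is read from these nearest genes.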

How the data were processed

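Total RNA from heart ventricle was labelled with biotin and hybridised to Affymetrix arrays, per the labels' protocols. The deposited values are summarised probe set intensity on a linear scale, made by the authors; the submitters' processing notes name MAS5, and the sources used here do not give its version or its settings. Every array had a 2% trimmed mean of 500.0, so the values were used as scaled. Of 45101 probe sets, 64 were controls. Of the others, 34945 had 1 gene symbol, 932 several and 9160 none; 34741 matched the RefSeq gene table of GRCm38.p6 by identifier, and the brightest probe set stood for a gene. The files name no build.

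Values were transformed to log2(signal + 16). Probe sets with a mean at or above the 40th percentile (a log2 value of 6.13) were tested, 27022 in all, with limma 3.58.1 in R 4.3.3 (lmFit, and eBayes with an intensity trend; two-sided, Benjamini-Hochberg adjustment, threshold 0.05). Littermate pairing comes from the series' design text. Deviations from group means correlated at 0.147 to 0.192 within pairs and at -0.161 to 0.0101 otherwise, across probe sets. Littermate pair as a block was an alternative fit.

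Members and lists were chosen with earlier results of these data known. Genes were named by a rule: all members and family genes, in each list the 3 largest that passed or else the smallest p, the flanking genes, and the 3 likest genes. Other genes given a value were chosen after their values were seen. The number of arrays limits the precision. No detection calls or protein sequences were used here. The result of 1 motif search is not reported here.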

Additional observations from a re-analysis of the deposited data

How the results depend on the processing

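Across 17 alternative fits (littermate pair as a block, pseudocounts of 64 and 1, no filter and a 60th percentile filter, quantile normalization, eBayes without trend, the Actb ratio as a covariate, and leaving out each array or pair), all 119 differences of the 7 Ms4a genes on their brightest probe sets stayed above 0. Many of these signs could not have turned. The block, the filters and eBayes without trend leave each difference as it was. All 7 genes were higher in all 3 pairs, so leaving out a pair or changing the pseudocount keeps the sign. For the 5 genes without overlap between groups, so does leaving out 1 array. The count is therefore no measure of robustness. The median of 1.02 of the 7 genes was 1.45 with the Actb ratio as a covariate, and 0.80 to 1.13 without single arrays. The covariate took Ms4a4d from 0.72 to 1.74, Ms4a6b from 1.18 to 1.65, Ms4a6d from 0.45 to 0.93 and Ms4a6c from 0.58 to 0.37. The number of Ms4a genes past the limma threshold was 0, 3 with littermate pair as a block (paired), 1 with a pseudocount of 64, 0 to 2 without single arrays and 1 without pair B. The cause was not tested. Other probe sets of Ms4a4b, Ms4a6d and Ms4a7, all below the filter, gave -0.50, -0.067 and -0.11. Averaged over their probe sets, Ms4a4b had 0.38, Ms4a4c 1.53, Ms4a7 0.46, Ms4a6b 0.78, Ms4a6c 0.43 and Ms4a6d 0.21.

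Over all probe sets, 59 were higher and 7 lower. The block gave 105 and 16, eBayes without trend 24 and 4, the covariate 8 and 1. Without pairs A and C there were 23 and 34 higher and 0 and 4 lower, and without pair B 12 lower. Without single arrays the counts were 33 (without Trex1 KO B; 37 without Trex1 KO C) to 85 (without Trex1 WT B) higher and 3 (without Trex1 KO A; 4 without Trex1 WT A) to 9 lower. Signals near background limit the values of Ms4a4b, Oas3, Mx2 and Csf3r in Trex1 WT and of Ms4a1, Ms4a2, Ms4a3 and Ms4a10.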
